A study of Mus musculus with 16 samples.

Results

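The 51 genes described here encode matrix metalloproteinases (MMPs), ADAMTS proteases, ADAMTS-like proteins and tissue inhibitors of metalloproteinases (TIMPs). They were chosen as families, by their gene symbols, from the 55487 genes of a cortex expression table. The set held 23 MMP genes, 19 ADAMTS genes, 5 ADAMTS-like genes and 4 TIMP genes.

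The cortices came from 16 WT male C57Bl6 mice aged 2 months, which received an i.p. injection of LPS at 2 mg/kg or of PBS on 2 consecutive days. Injections were given at ZT1 or at ZT13, which are 1 hour after lights-on and 1 hour after lights-off in a 12-hour light/dark cycle, and tissue was taken 24 hours after the second one. The 4 groups were ZT1 PBS (n = 3), ZT1 LPS (n = 5), ZT13 PBS (n = 3) and ZT13 LPS (n = 5), so that treatment and time of day (TOD) could be compared separately and together. RNA was extracted from the whole tissue, ribosomal RNA was depleted, and expression was deposited as CPM, the number of reads on a gene for each 1000000 reads on all genes of the sample. The groups were taken from sample titles, because the treatment field of the labels contradicted the titles in 12 of 16 samples.

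MMPs are zinc-dependent endopeptidases that are made as inactive proenzymes and, between them, cleave most proteins of the extracellular matrix. ADAMTS proteases are secreted relatives that act on proteoglycans, procollagens and von Willebrand factor, ADAMTS-like proteins share their ancillary domains but lack the protease domain, and TIMPs bind and inhibit the active enzymes. In the brain these proteins are studied for remodelling of perineuronal matrix and of the vascular basement membrane, and for opening of the blood-brain barrier (BBB) in inflammation.

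The libraries held 20251840 to 29112758 reads on genes, with a median of 22459623. Neuronal genes were abundant in all of them, with the summed CPM of 8 neuronal markers between 7339 and 8180. Markers of the choroid plexus, a tissue that adjoins cortex in dissection, summed to between 14.2 and 975 CPM and varied widely within every group. The labels do not say whether mice of a group shared a cage or litter, and p-values measure the spread between these animals only.

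Of the 51 members, 42 reached a CPM of 1 in at least 3 samples and were tested, together with 18859 genes in all. The 9 others were *Mmp1a*, *Mmp1b*, *Mmp7* and *Mmp20*, which were at 0 in all 16 samples, and *Mmp10*, *Mmp13*, *Mmp21*, *Mmp27* and *Adamts19*, of which *Adamts19* reached the highest single value, 0.94 CPM. Another 6 members, *Mmp3*, *Mmp8*, *Mmp12*, *Mmp25*, *Adamts14* and *Timp1*, passed this filter only through LPS samples and so had to differ between treatments in order to be tested.

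**Figure D1:**
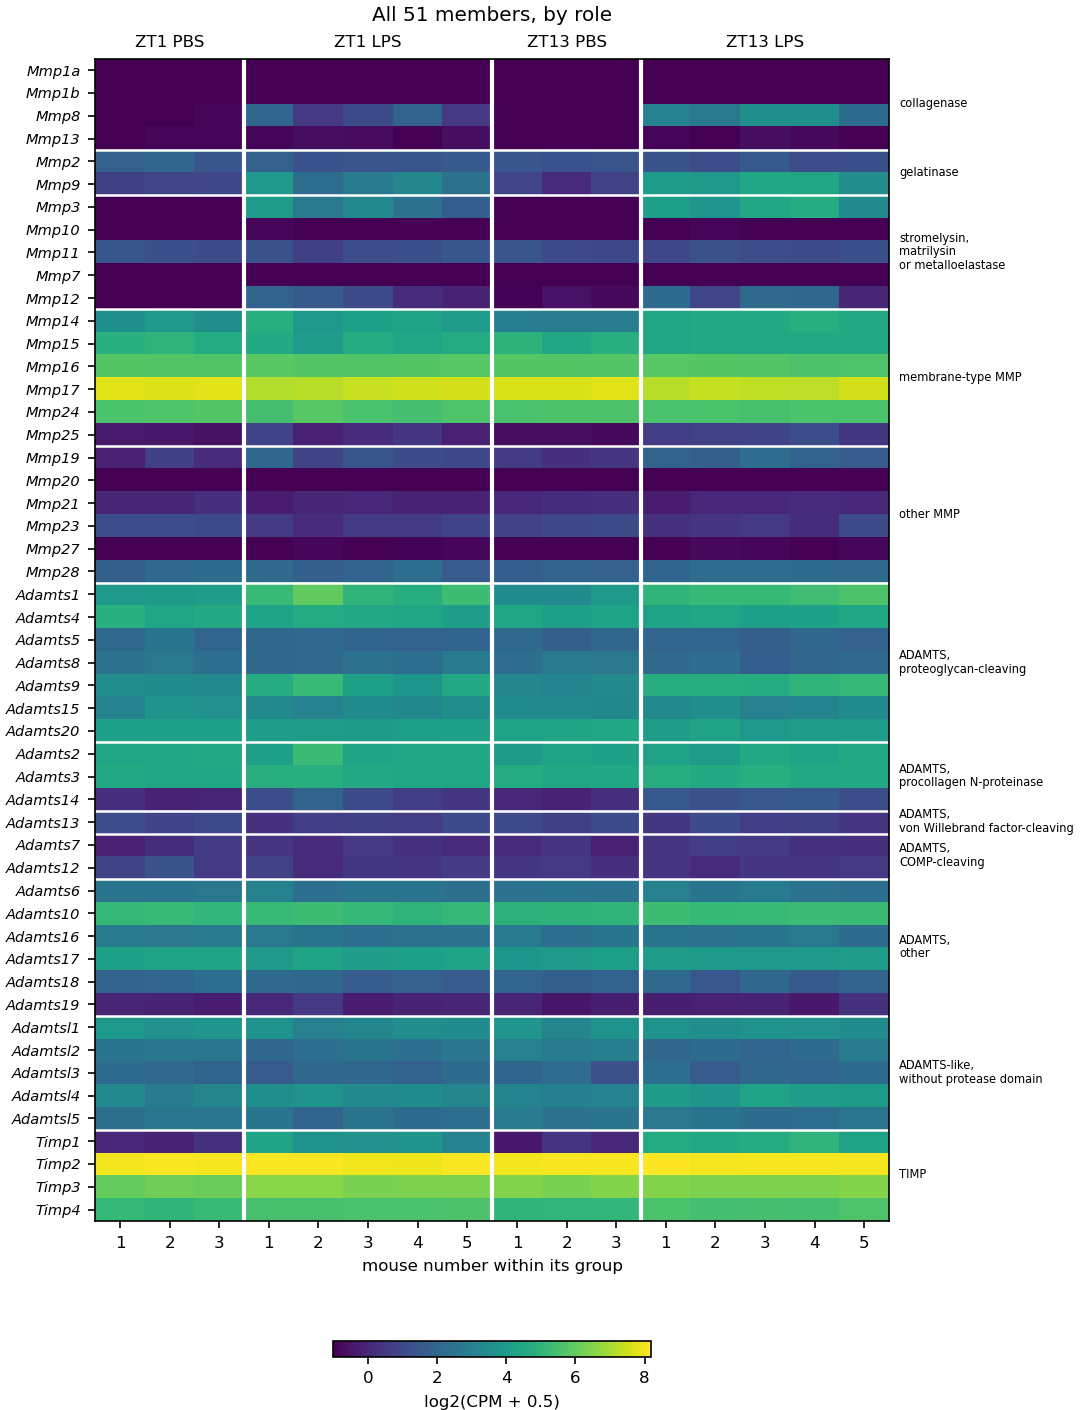
Expression of all 51 members (rows, ordered by role) in the 16 mice (columns, numbered within their group), as log2(CPM + 0.5) on the colour scale. *Mmp17* and *Timp2* are bright in every column, 4 members are at 0 throughout, and *Mmp3*, *Mmp8*, *Mmp9* and *Timp1* change from dark to bright between the PBS and LPS columns.

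In unstimulated cortex, the highest levels were those of inhibitors and membrane-bound enzymes, with *Timp2* and *Mmp17* first. Levels were compared between genes as mean CPM per kilobase of exon. In the 6 PBS mice *Timp2*, the broadly expressed inhibitor that also takes part in MMP2 activation, was highest at 68.4 CPM per kb. *Mmp17*, a glycosylphosphatidylinositol-anchored enzyme, came second at 31.4, followed by the neuronal membrane-type enzyme *Mmp24* at 10.4, *Timp3* at 9.37, *Mmp16* at 6.10 and *Timp4* at 5.62. *Timp1* ranked 29 of 51, at 0.626 CPM per kb. *Mmp24* shares 637 exonic bases with *BC029722* (23.1 to 31.1 CPM) on the opposite strand, and the strand setting of counting is not given.

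The order changed in LPS mice, in which *Timp1* joined the most abundant members. It stood at 14.7 ± 4.97 CPM per kb (SD, n = 5) in ZT1 LPS mice, behind *Timp2* and *Mmp17*, and at 27.5 ± 4.89 (n = 5) in ZT13 LPS mice, where *Mmp17* was 24.4 ± 2.52, so that these neighbours lay within their spread. Over all 10 LPS mice *Mmp3* went from 0 in PBS to 7.07 CPM per kb, *Mmp9* from 0.340 to 3.5, and *Mmp8* from 0.00289 to 2.13, while *Mmp16* moved from rank 5 to 9. With the longest transcript as the length, *Timp3* at 16.2 CPM per kb passed *Mmp24* at 11.3 in PBS mice, *Mmp16* stood at 10.6, *Adamts10* at 7.93 passed *Timp4* at 6.03, and *Timp1* kept rank 29.

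LPS against PBS asked which members responded to systemic inflammation. The strongest responses were those of 1 inhibitor and 4 secreted enzymes: *Timp1*, *Mmp3*, *Mmp8*, *Mmp9* and *Mmp12* were low or undetected in PBS cortex and rose at both times. The ADAMTS genes *Adamts1*, *Adamts9* and *Adamts14* rose 2.29- to 4.08-fold in mean CPM, *Mmp14* and *Mmp19* rose as well, and the abundant *Mmp17* fell to 0.773 and 0.803 of its PBS level. At ZT1 12 members were higher and 2 lower of the 42 tested. Over all tested genes 16.2% were called at ZT1, 11.1% higher and 5.15% lower. At ZT13 15 members were higher and 4 lower, and here 28.6% of all tested genes were called, 19.2% higher and 9.4% lower. The higher counts include 5 members at ZT1 and 6 at ZT13 that were tested only because they reached 1 CPM in LPS mice. Of the other 36 members, 7 (19.4%) were higher and 2 lower at ZT1, and 9 (25%) were higher and 4 lower at ZT13.

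A member was called where the adjusted p of limma was under 0.05, and log2 fold changes below are on the log2(CPM + 0.5) scale, which understates changes of genes near 0. The median log2 fold change over the tested members was -0.03 at ZT1 and 0.04 at ZT13, beside 0.04 and 0.05 over all tested genes. At ZT1 the number of called members fell from 14 to 8 without ZT1 PBS mouse 3, to 9 without ZT1 PBS mouse 1, and to 5 when 47 members were tested without a filter. Calls over all tested genes fell as well without these mice, from 3061 to 1770 and 1767. Without a filter 1605 of 38565 genes (4.16%) were called. Median-of-ratios scaling moved the higher share of all calls from 68.2% to 54.1% at ZT1 and from 67.2% to 51% at ZT13. After this scaling the members split into 12 higher and 3 lower at ZT1 and 14 higher and 4 lower at ZT13. Over all tested genes 16.4% and 29.8% were then called.

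Both times shared 12 called members, 85.7% of the 14 at ZT1 and 63.2% of the 19 at ZT13. Over all tested genes 2479 were called at both, 81% of the ZT1 calls and 45.9% of the ZT13 calls. Of the 12 members 11 were higher at both times, with the larger log2 fold change at ZT13 in each, and *Mmp17* was lower at both. *Mmp3*, *Mmp8*, *Mmp12*, *Adamts14* and *Timp1* among these 11 were tested only because they reached 1 CPM in LPS mice. Among the 1739 genes that were higher at both times, 71.9% changed more at ZT13. *Timp3* and *Mmp23* were called at ZT1 alone. *Mmp25*, *Mmp28*, *Adamts8*, *Adamts10*, *Adamts20*, *Adamtsl2* and *Adamtsl4* were called at ZT13 alone. These differences between times were tested by the interaction described further on.

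**Figure D2:**
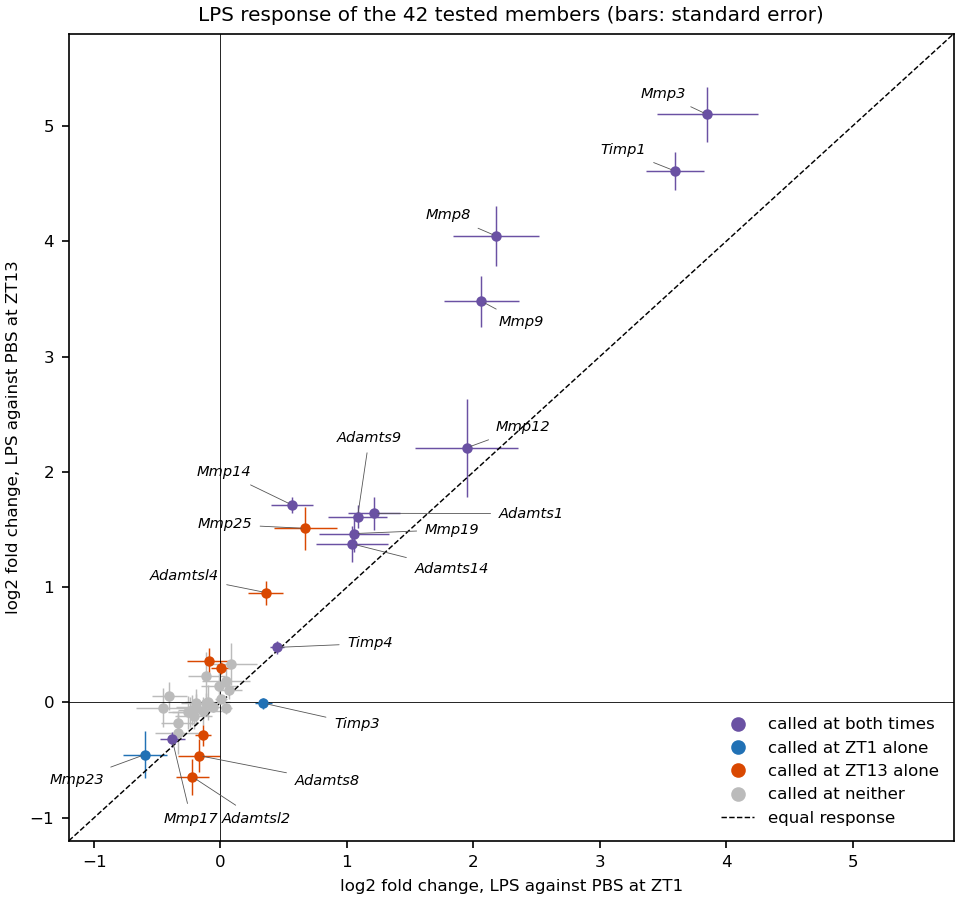
Response to LPS of the 42 tested members as the log2 fold change against PBS at ZT1 (x axis) and at ZT13 (y axis), with bars for the standard error and colours for the times at which a member was called. *Mmp3*, *Timp1*, *Mmp8* and *Mmp9* lie far up and to the right, above the dashed line of equal response, and most grey points lie close to 0.

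Of the inhibitors, *Timp1* had the largest response. This secreted inhibitor is known as a gene of reactive astrocytes and of acute inflammation. In ZT1 PBS mice its CPM was 0.542, 0.444 and 0.758, and in ZT1 LPS mice it was 20.1, 12.3, 12.1, 12.9 and 7.84. ZT13 PBS mice had 0.266, 0.786 and 0.538, and ZT13 LPS mice 24.3, 22.6, 25.4, 30.8 and 18.9.

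No LPS value came near any PBS value, and only ZT1 LPS mouse 1 reached the range of the ZT13 LPS group. *Timp1* rose by 3.59 ± 0.23 (SE) on the log2 scale at ZT1 (adjusted p = 2.36e-06) and 4.61 ± 0.17 at ZT13 (adjusted p = 3.05e-10), with mean CPM 22.4-fold and 46-fold that of PBS. *Timp1* (chrX:20870166-20874735, GRCm38) lies inside *Syn1*, a synapsin gene on the opposite strand, with 0 bases of exon in common. *Syn1* was 549 to 681 CPM and went the other way, at -0.15 at ZT1 and -0.21 at ZT13 on the log2 scale. Of 8 astrocyte markers 4 were higher after LPS at ZT1, and 5 were higher and 1 lower at ZT13, and their part in the rise of *Timp1* was not tested.

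*Timp4*, an inhibitor enriched in brain and heart, rose to nearly the same degree at both times. Its CPM in PBS mice was 34.3, 31.5 and 35.6 at ZT1 and 31.3, 32.4 and 33.6 at ZT13. LPS mice had 45.1, 45.0, 45.7, 45.7 and 49.1 at ZT1 and 47.2, 43.2, 43.6, 43.3 and 49.9 at ZT13, so that all 10 lay above all 6 PBS mice. The response of *Timp4* was 0.44 ± 0.05 at ZT1 (adjusted p = 0.000295) and 0.48 ± 0.06 at ZT13 (adjusted p = 2.28e-05). *Timp4* lies inside *Syn2* with 90 bases of exon shared on opposite strands, and *Syn2* was lower after LPS (-0.21 and -0.26).

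*Timp2* did not differ detectably, with means of 267 ± 9.22 and 268 ± 15.6 CPM (SD) in PBS and LPS mice at ZT1 and of 266 ± 7.37 and 272 ± 10.7 at ZT13. The 95% confidence interval of its log2 fold change was -0.10 to 0.11 at ZT1 and -0.05 to 0.11 at ZT13. The 16 mice ranged from 248 to 290 CPM.

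*Timp3*, which binds the matrix and also inhibits ADAMTS proteases, was called at ZT1 alone. ZT1 PBS mice had 64.0, 72.2 and 67.1 CPM, and ZT1 LPS mice 93.8, 92.8, 80.0, 81.7 and 81.3. ZT13 PBS mice had 85.5, 80.0 and 89.2, and ZT13 LPS mice 87.9, 81.5, 81.5, 82.9 and 88.8.

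The 3 ZT1 PBS mice were thus the only ones below 80 CPM, and the other 3 groups overlapped. LPS changed *Timp3* by 0.34 ± 0.07 on the log2 scale at ZT1 (adjusted p = 0.00518) and -0.01 ± 0.05 at ZT13. *Timp3* (chr10:86300372-86349506) shares 1733 exonic bases with *Syn3* on the opposite strand, and the sources used here do not state whether reads were counted by strand. *Syn3* was 28.0 to 51.3 CPM and higher after LPS at both times (0.40 and 0.32), and the reads of the pair cannot be told apart without strand.

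The next group of members comprised secreted collagenases and stromelysins, most of which lie in a cluster of 10 MMP genes at chr9:7272514-7699585 (GRCm38). LPS induced 3 of the 10, *Mmp3*, *Mmp8* and *Mmp12*, and none of the other 7 reached 0.2 CPM in any mouse. *Mmp3* encodes stromelysin-1, which cleaves proteoglycans and laminin and activates other MMPs. It was at 0 in all 6 PBS mice. ZT1 LPS mice had 16.2, 5.95, 9.45, 4.90 and 2.85 CPM, and ZT13 LPS mice 17.7, 13.2, 22.0, 25.4 and 9.72.

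A library of PBS cortex that held 3 *Mmp3* reads would have shown at most 0.148 CPM, well under every LPS value. Against a floor of 3 reads per library, *Mmp3* was at least 56.0-fold higher after LPS at ZT1 and at least 136-fold higher at ZT13. The log2 fold change was 3.85 ± 0.40 (adjusted p = 8.01e-05) and 5.10 ± 0.24 (adjusted p = 2.95e-09). Floors and intervals of this kind cover counting error only.

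*Mmp8* encodes neutrophil collagenase, which is stored in neutrophil granules. A single read, in ZT1 PBS mouse 3, was found in the 6 PBS mice. ZT1 LPS mice had 3.45, 0.940, 1.72, 3.26 and 0.952 CPM, and ZT13 LPS mice 7.93, 6.02, 11.8, 11.3 and 4.30, with no overlap between these groups.

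At ZT13 *Mmp8* was at least 64.1-fold higher after LPS, and at ZT1 the ratio was 135 with an exact 95% interval of 24 to 5344. The log2 fold change was 2.18 ± 0.34 (adjusted p = 0.00138) at ZT1 and 4.05 ± 0.26 (adjusted p = 5.75e-08) at ZT13. *Mmp12*, the macrophage metalloelastase, was the most scattered member of the cluster. It was at 0 in ZT1 PBS mice and reached 3.31, 2.46, 1.68, 0.630 and 0.453 CPM in ZT1 LPS mice.

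ZT13 PBS mice had 0.0380, 0.185 and 0.0896 CPM of *Mmp12*, and ZT13 LPS mice 4.16, 1.38, 4.07, 3.68 and 0.493. The LPS groups lay above the PBS groups but overlapped each other. *Mmp12* was at least 12.1-fold higher after LPS at ZT1, with log2 fold changes of 1.95 ± 0.40 (adjusted p = 0.00743) and 2.21 ± 0.43 (adjusted p = 0.00138) at the 2 times. It shares 157 exonic bases with *Mmp1b* on the opposite strand, which was at 0 in all samples.

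The sequences upstream of these genes are shown because induced and silent genes of the cluster had the same motif close to their start sites. The 110 bases before the RefSeq start (GRCm38.p6, plus strand of chromosome 9) are given for the 3 induced genes and for *Mmp10* and *Mmp13*, which stayed under 0.2 CPM. Capitals mark matches to the AP-1 motif TGANTCA, which reads the same on both strands, and to the TATA motif TATAAA on either strand.
Mmp3, induced, chr9:7445712-7445821: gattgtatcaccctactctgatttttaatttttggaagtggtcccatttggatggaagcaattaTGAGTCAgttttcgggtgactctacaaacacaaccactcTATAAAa
Mmp12, induced, second of 2 starts, chr9:7347264-7347373: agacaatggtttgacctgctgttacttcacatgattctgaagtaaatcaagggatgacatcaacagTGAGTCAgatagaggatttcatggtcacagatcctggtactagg
Mmp8, induced, chr9:7558319-7558428: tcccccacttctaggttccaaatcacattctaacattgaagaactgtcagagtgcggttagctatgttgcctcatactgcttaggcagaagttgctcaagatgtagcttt
Mmp10, not induced, chr9:7502232-7502341: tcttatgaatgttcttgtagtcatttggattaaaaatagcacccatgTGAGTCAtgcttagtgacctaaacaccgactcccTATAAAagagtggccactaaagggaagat
Mmp13, not induced, chr9:7272404-7272513: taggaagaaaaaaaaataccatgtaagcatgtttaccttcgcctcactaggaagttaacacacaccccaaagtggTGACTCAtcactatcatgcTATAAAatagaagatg

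Within 250 bases upstream, 8 of the 10 cluster genes had the AP-1 motif, beginning between 35 and 95 bases before a start, and the exceptions were *Mmp8* and *Mmp27*. None of the 26 other members with a promoter sequence had it. Of 32851 mouse promoters of the same length 6.75% held the motif and 12.4% held TATAAA. Among the genes with a match *Mmp3* and *Mmp12* rose after LPS and 6 stayed under 0.2 CPM, so the match did not separate responding from silent genes. A match is a description of letters and no evidence of binding, and 15 of the 51 members had no entry in the promoter table.

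**Figure D3:**
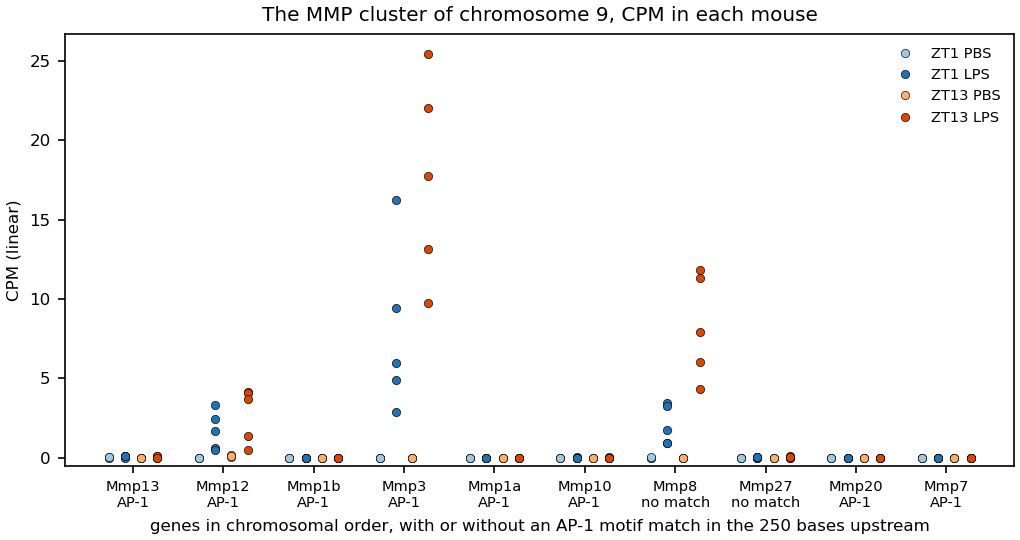
CPM of the 10 MMP genes of the chromosome 9 cluster, in chromosomal order, with 1 point for each mouse and colours for the 4 groups. *Mmp3*, *Mmp8* and *Mmp12* rise after LPS, with *Mmp3* reaching 25.4 CPM, and the other 7 genes lie on the baseline whether or not an AP-1 motif was found.

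Of the gelatinases, which cleave type IV collagen of basement membranes, one responded and one did not. *Mmp9* (chr2:164940780-164955850) had 1.18, 1.38 and 1.43 CPM in ZT1 PBS mice and 14.3, 4.43, 6.42, 9.10 and 4.89 in ZT1 LPS mice. At ZT13 PBS mice had 1.40, 0.555 and 1.25 and LPS mice 16.4, 14.8, 21.6, 21.0 and 11.0. Every LPS value exceeded every PBS value, and 1 of 5 ZT1 LPS mice reached the ZT13 LPS range.

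The response of *Mmp9* was 2.06 ± 0.30 on the log2 scale at ZT1 (adjusted p = 0.000877) and 3.48 ± 0.22 at ZT13 (adjusted p = 5.23e-08), and mean CPM was 5.88-fold and 15.8-fold that of PBS. *Mmp2*, the constitutive gelatinase, had mean CPM of 2.95 and 2.37 in PBS and LPS mice at ZT1 and of 2.14 and 2.00 at ZT13. Its 95% interval spanned -0.60 to 0.09 at ZT1 and -0.40 to 0.22 at ZT13.

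Markers of neutrophils, whose granules carry MMP8, MMP9 and MMP25, moved with these genes. The summed CPM of 12 neutrophil markers, none of them a member, was 5.35 to 7.25 in PBS mice, 86.8, 16.9, 36.1, 79.7 and 24.2 in ZT1 LPS mice 1 to 5, and 97.4, 89.8, 140, 143 and 54.4 in ZT13 LPS mice 1 to 5. *Cxcr2*, the chemokine receptor of mature neutrophils, was at 0 in all 6 PBS mice and 0.671 to 13.4 CPM in LPS mice. Of the granule genes that neutrophils express while they develop in bone marrow, *Elane* was at 0 in all PBS mice and in 8 of 10 LPS mice, and *Mpo* and *Camp* stayed under 1 CPM in all mice. *Mpo* was 0.0896 to 0.833 CPM in PBS mice and 0 to 0.265 in LPS mice. Another gene of this kind, *Ngp*, was 0.114 to 0.547 CPM in PBS mice and 0.420 to 2.06 in LPS mice. *Ltf* was 0 to 0.314 CPM in PBS mice and 0.0453 to 1.13 in LPS mice, overlapped between treatments at both times and was under the filter for testing. Of the 8 neutrophil markers tested, 5 were higher after LPS at ZT1 and 8 at ZT13, among them *S100a9* at 4.07 and 5.63 and *Retnlg* at 2.32 and 3.29 on the log2 scale.

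In each LPS group the mice with the most *Mmp8* also had the most neutrophil transcripts, mice 1 and 4 at ZT1 and mice 3 and 4 at ZT13. Markers of monocytes and border macrophages summed to 8.30 to 11.7 CPM in PBS mice, 12.3 to 26.4 in ZT1 LPS mice and 28.2 to 32.8 in ZT13 LPS mice, and 4 of 6 tested were higher after LPS at each time. Their part in the rise of *Mmp8*, *Mmp9*, *Mmp12* and *Mmp25* was not tested. In bulk tissue more cells of a type and more RNA per cell cannot be told apart.

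**Figure D4:**
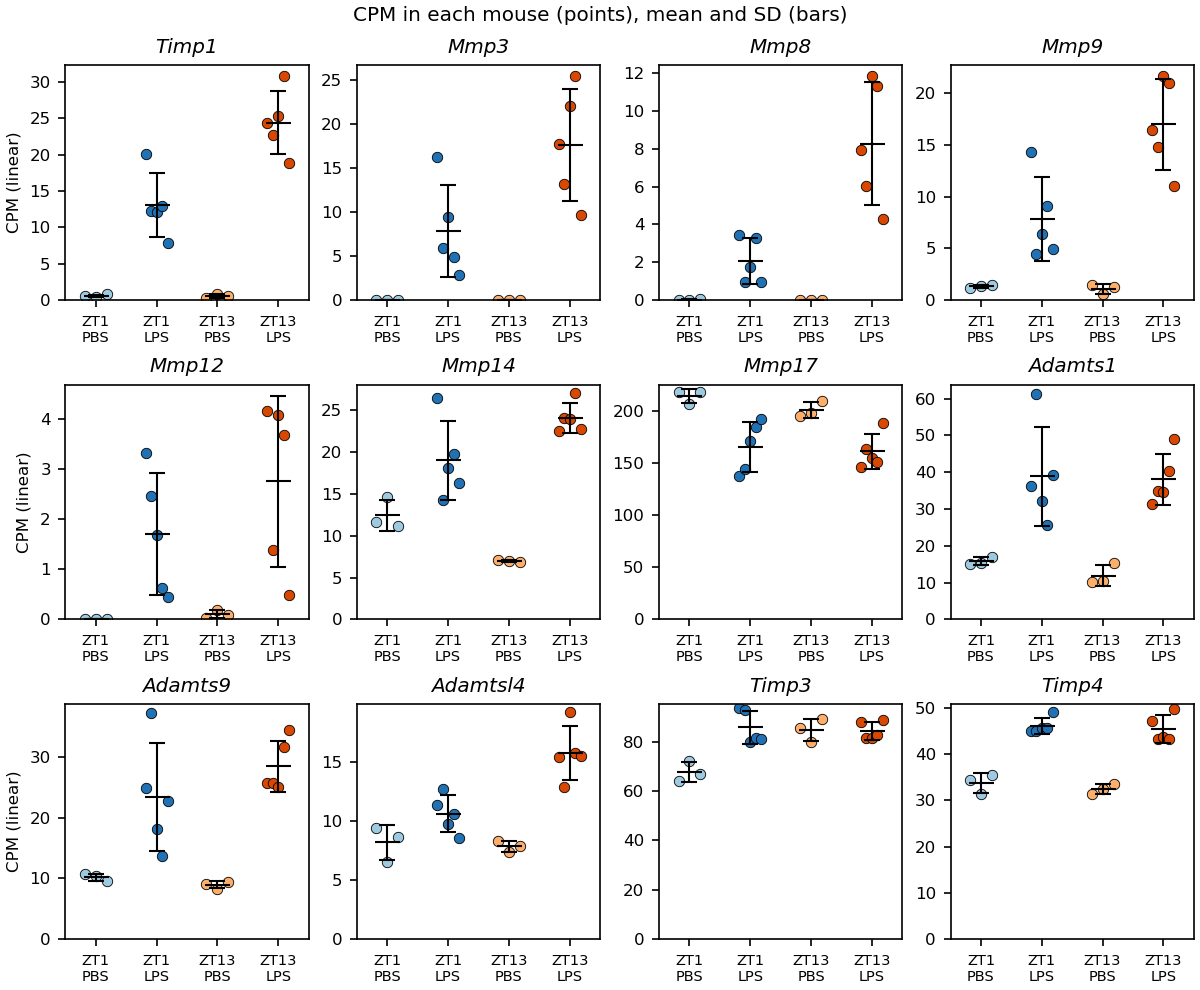
CPM of 12 members in each mouse (points, linear axes from 0), with the mean and SD of each group as black bars. LPS and PBS mice are separated at both times for *Timp1*, *Mmp3*, *Mmp8*, *Mmp9*, *Mmp12*, *Adamts1*, *Adamts9* and *Timp4*, and *Mmp14* is lower in ZT13 PBS mice (6.85 to 7.06) than in ZT1 PBS mice (11.2 to 14.6).

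Membrane-type MMPs act at the cell surface, and their 6 genes responded in different directions. *Mmp14* (chr14:54431612-54445364), which activates proMMP2 and is known in vessel sprouting, had 11.6, 14.6 and 11.2 CPM in ZT1 PBS mice and 26.4, 14.2, 18.1, 19.8 and 16.3 in ZT1 LPS mice. ZT13 PBS mice had 7.06, 6.98 and 6.85, and ZT13 LPS mice 22.5, 24, 23.9, 27.0 and 22.7. Treatment groups overlapped by 1 mouse at ZT1 and were far apart at ZT13.

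The response of *Mmp14* was 0.57 ± 0.17 on the log2 scale at ZT1 (adjusted p = 0.0382) and 1.71 ± 0.07 at ZT13 (adjusted p = 9.69e-10). The ZT1 call was lost without PBS mouse 1 or 3 or without LPS mouse 3 or 4 (adjusted p up to 0.151), and the ZT13 call held without each mouse. *Mmp25*, the leukocyte enzyme leukolysin, had 0.0896 to 0.296 CPM in PBS mice, 0.403 to 1.31 in ZT1 LPS mice and 0.896 to 1.82 in ZT13 LPS mice. Its log2 fold change was 1.51 ± 0.19 at ZT13 (adjusted p = 3.73e-05) and 0.67 ± 0.25 at ZT1 (adjusted p = 0.0884).

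*Mmp17* (chr5:129584169-129611099) was the member that fell at both times. PBS mice had 219, 207 and 219 CPM at ZT1 and 195, 198 and 210 at ZT13. LPS mice had 138, 144, 171, 185 and 192 at ZT1 and 147, 164, 155, 152 and 189 at ZT13, all below the PBS mice of their time.

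The log2 fold change was -0.38 ± 0.10 (adjusted p = 0.0222) at ZT1 and -0.32 ± 0.07 (adjusted p = 0.00228) at ZT13, and the ZT1 call was lost without any 1 of the 3 PBS mice (adjusted p up to 0.0905). *Mmp15*, *Mmp16* and *Mmp24* were not called in any comparison. *Mmp16* and *Mmp24* stayed between 48.4 and 56.3 CPM and between 43.5 and 54.4 CPM over all 16 mice.

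*Mmp19*, a secreted enzyme of basement membrane proteins, had 0.394, 1.15 and 0.616 CPM in ZT1 PBS mice and 3.61, 1.34, 2.25, 1.66 and 1.51 in ZT1 LPS mice. At ZT13 the values were 1.04, 0.693 and 0.853 in PBS mice and 3.29, 2.91, 4.38, 3.18 and 2.64 in LPS mice. The groups did not overlap at either time, with log2 fold changes of 1.06 ± 0.28 (adjusted p = 0.0238) and 1.46 ± 0.16 (adjusted p = 1.21e-05). At ZT1 the call was lost without PBS mouse 1 or 3 or LPS mouse 3 (adjusted p up to 0.118), and *Mmp19* shares 789 exonic bases with *Tmem198b* (5.97 to 11.7 CPM) on the opposite strand.

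*Mmp23* and *Mmp28* were called at 1 time each, with small changes. *Mmp23* fell by 0.60 ± 0.17 on the log2 scale at ZT1 (adjusted p = 0.0366), from 1.56 to 1.82 CPM in PBS mice to 0.627 to 1.31 in LPS mice. At ZT13 the log2 fold change of *Mmp23* was -0.45 (adjusted p = 0.123), and its interaction was 0.15 (adjusted p = 0.925), so its responses at the 2 times were not told apart. *Mmp28*, also called epilysin, rose by 0.36 ± 0.12 at ZT13 (adjusted p = 0.0355), from 2.84 to 3.26 CPM to 3.37 to 4.40. At ZT1 *Mmp28* was 2.96 to 4.26 CPM in PBS mice and 2.59 to 4.48 in LPS mice. Its interaction was 0.45 (adjusted p = 0.535), so its responses too were not told apart. Both calls were lost without any 1 of the 3 PBS mice of that time and without each of 3 LPS mice, mice 1, 3 and 4 for *Mmp23* and mice 2, 3 and 4 for *Mmp28*. *Mmp28* shares 466 exonic bases with *1700020L24Rik*, which was at most 1.25 CPM.

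Among the 7 ADAMTS genes whose products cleave proteoglycans such as aggrecan, brevican and versican, 2 rose at both times. *Adamts1* (chr16:85793827-85803113), an inducible protease that is also antiangiogenic, had 15, 15.4 and 17.1 CPM in ZT1 PBS mice and 36.2, 61.1, 32.0, 25.7 and 39.3 in ZT1 LPS mice. At ZT13 it had 10.2, 10.3 and 15.2 in PBS mice and 31.3, 35.0, 34.6, 40.4 and 48.9 in LPS mice. The groups did not overlap, and the log2 fold change was 1.21 ± 0.21 (adjusted p = 0.00230) and 1.64 ± 0.14 (adjusted p = 1.10e-06).

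*Adamts9* (chr6:92772699-92943492), which cleaves versican and aggrecan, had 10.7, 10.3 and 9.55 CPM in ZT1 PBS mice and 24.9, 37.3, 18.1, 13.8 and 22.8 in ZT1 LPS mice. At ZT13 it had 9.10, 8.28 and 9.4 in PBS mice and 25.8, 25.7, 25.1, 31.6 and 34.4 in LPS mice. Here too the groups were separate, with log2 fold changes of 1.08 ± 0.24 (adjusted p = 0.00936) and 1.61 ± 0.10 (adjusted p = 4.79e-08). Without ZT1 PBS mouse 3 the adjusted p at ZT1 was 0.0505. It shares 1381 exonic bases with the antisense gene *A730049H05Rik*, which was 0.115 to 1.26 CPM.

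Markers of endothelial cells rose in the same mice. Their summed CPM over 8 genes was 123 to 178 in PBS mice and 225 to 303 in LPS mice, with 5 genes higher and 1 lower at ZT1 and 7 higher at ZT13. Of 8 fibroblast markers 3 were higher at ZT1 and 6 at ZT13. The part of these cells in the rise of *Adamts1*, *Adamts9* and *Mmp14* was not tested.

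ZT1 LPS mouse 2 had the highest value of its group for *Adamts1*, *Adamts9*, *Adamts14* and *Adamts2*, and the lowest sum of neutrophil markers. Of the other proteoglycan-cleaving genes *Adamts8* and *Adamts20* were called lower at ZT13 alone. *Adamts8* went from 4.33, 6.01 and 5.71 CPM to 4.04, 4.36, 2.87, 3.54 and 3.92, with 1 LPS mouse inside the PBS range. *Adamts20* went from 19.7, 19.8 and 21.6 CPM to 17.2, 19.9, 14.4, 16 and 16, again with 1 LPS mouse inside it. At ZT1 *Adamts20* was 18.5 to 18.7 CPM in PBS mice and 15.5 to 17.5 in LPS mice, without overlap. Its log2 fold change at ZT1 was -0.14 (adjusted p = 0.166). The interaction was -0.15 for *Adamts20* (adjusted p = 0.756) and -0.29 for *Adamts8* (adjusted p = 0.765), so their responses at the 2 times were not told apart.

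The log2 fold changes were -0.46 ± 0.14 for *Adamts8* (adjusted p = 0.0265) and -0.29 ± 0.09 for *Adamts20* (adjusted p = 0.0277). The call of *Adamts8* was lost without PBS mouse 2 or 3 or LPS mouse 4, and that of *Adamts20* without any 1 PBS mouse or without LPS mouse 3 or 4. *Adamts4*, *Adamts5* and *Adamts15*, which include the main cartilage aggrecanases, were not called in any comparison, and their log2 fold changes after LPS lay between -0.24 and 0.00.

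*Adamts14*, one of 3 procollagen N-proteinases, had 0.690, 0.444 and 0.463 CPM in ZT1 PBS mice and 1.82, 3.27, 1.68, 1.12 and 0.861 in ZT1 LPS mice. ZT13 PBS mice had 0.531, 0.416 and 0.672 and ZT13 LPS mice 2.39, 1.93, 2.35, 2.54 and 1.79. LPS mice lay above PBS mice at both times, with log2 fold changes of 1.04 ± 0.28 (adjusted p = 0.0291) and 1.38 ± 0.16 (adjusted p = 1.73e-05). The ZT1 call was lost without any 1 PBS mouse or without LPS mouse 1 or 3 (adjusted p up to 0.106), and the 2 related genes *Adamts2* and *Adamts3* were called in no comparison.

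*Adamts10*, a protease of fibrillin microfibrils, rose by 0.30 ± 0.05 on the log2 scale at ZT13 (adjusted p = 0.000597), from 29.6, 29.7 and 31.9 CPM to 39.3, 34.9, 37.3, 38.6 and 37.8. At ZT1 the difference was 0.00 ± 0.07, with 33.6 to 37.1 CPM in PBS mice and 30.9 to 39.4 in LPS mice. *Adamts10* was lower in ZT13 PBS than in ZT1 PBS mice by 0.20 on the log2 scale (adjusted p = 0.185). Its interaction was 0.30 (adjusted p = 0.269), so its responses at the 2 times were not told apart. Neither *Adamts13*, the von Willebrand factor protease, nor *Adamts7* and *Adamts12*, which cleave cartilage oligomeric matrix protein (COMP), was called.

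The ADAMTS-like genes differed from one another. *Adamtsl4*, a fibrillin-associated protein, had 8.27, 7.35 and 7.93 CPM in ZT13 PBS mice and 15.4, 12.9, 19.3, 15.8 and 15.5 in ZT13 LPS mice, while ZT1 LPS mice had 11.4, 12.8, 9.76, 10.6 and 8.61. Its log2 fold change was 0.95 ± 0.10 at ZT13 (adjusted p = 1.08e-05) and 0.36 ± 0.14 at ZT1 (adjusted p = 0.104). *Adamtsl2*, which is known for limiting TGF-β signalling, fell by 0.65 ± 0.16 at ZT13 (adjusted p = 0.00678), from 6.24 to 7.44 CPM in PBS mice to 3.44 to 6.22 in LPS mice. At ZT1 *Adamtsl2* was 5.33 to 5.63 CPM in PBS mice and 3.59 to 5.53 in LPS mice and was not called. Its interaction was -0.42 (adjusted p = 0.574), so its responses at the 2 times were not told apart.

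ZT13 LPS against ZT1 LPS asked whether the time of injection changed the level reached after LPS. No member was called by limma, where 0.0212% of all tested genes, or 4 genes, were called (0.0106% higher and 0.0106% lower at ZT13). An unadjusted p under 0.05 was found for 9 of the 42 members. The share of all tested genes under that unadjusted threshold was not counted, so the 9 members have no background beside them. The largest differences were those of *Mmp8* (1.82 ± 0.33, adjusted p = 0.0796), *Mmp3* (1.25 ± 0.36, adjusted p = 0.213), *Mmp9* (1.15 ± 0.27, adjusted p = 0.131) and *Timp1* (0.92 ± 0.19, adjusted p = 0.0890). *Adamtsl4* differed by 0.55 ± 0.11 (adjusted p = 0.0890). All were higher at ZT13.

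The ZT13 LPS and ZT1 LPS groups did not overlap for *Mmp8* and *Adamtsl4*, for which a two-sided exact permutation test gave p = 0.00794, the smallest possible with 5 mice against 5. The same exact permutation test gave p = 0.0159 for *Mmp9* and *Timp1*, p = 0.0317 for *Mmp3* and p = 0.0476 for *Mmp14* and *Mmp25*, none of them adjusted for the number of genes. These exact tests covered only the 23 members described in full. Groups without overlap were not counted over all tested genes, so no share stands beside these members. For LPS against PBS, some limma calls had an exact permutation p above 0.05. At ZT1 these were *Mmp3*, *Mmp19*, *Adamts9* and *Adamts14* (exact permutation p = 0.0536 each) and *Mmp14* (p = 0.0714). At ZT13 it was *Adamts20* (exact permutation p = 0.0714). The other members called at these times had an exact permutation p of 0.0357 or lower.

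The outcome changed with 1 library and with the form of the fit. ZT1 LPS mouse 1 had the highest *Timp1*, *Mmp3*, *Mmp8*, *Mmp9*, *Mmp12*, *Mmp14*, *Mmp19* and *Mmp25* of its group and its highest sums of neutrophil and monocyte markers. Without it 7 members were called, all higher at ZT13: *Timp1* (1.09, adjusted p = 0.0102), *Mmp9* (1.39, 0.0122), *Mmp8* (2.01, 0.0128), *Mmp14* (0.49, 0.0218), *Mmp3* (1.55, 0.0255), *Mmp19* (0.79, 0.0270) and *Adamtsl4* (0.58, 0.0315). Over all tested genes 345 (1.83%) were then called, 317 of them higher at ZT13. For all 7 members but *Adamtsl4* this mouse held the highest ZT1 LPS value, so leaving it out had to widen the difference. None of the 7 members was called when any other single mouse was left out. With all mice kept, a single fit of all 16 samples and sample quality weights called 4 members each, *Mmp8*, *Mmp9*, *Timp1* and *Adamtsl4*, beside 122 (0.647%) and 225 (1.19%) of all tested genes.

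ZT13 PBS against ZT1 PBS asked which members followed TOD without inflammation. *Mmp14* was lower at ZT13, by 0.78 ± 0.11 on the log2 scale (adjusted p = 0.0228), and *Timp3* was higher by 0.32 ± 0.06 (adjusted p = 0.0442). These were 2 of 42 members, beside 0.52% of all tested genes (0.302% higher and 0.217% lower at ZT13). The values given above did not overlap between the 2 groups for either gene, but 3 mice against 3 cannot give an exact permutation p below 0.10. Both calls were lost when any 1 of the 6 mice was left out, with an adjusted p of 0.0545 to 0.110 for *Mmp14* and of 0.0651 to 0.174 for *Timp3*.

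Endothelial and choroid plexus markers stand beside these results as measured facts. The summed CPM of 8 endothelial markers was 178, 177 and 175 in ZT1 PBS mice and 123, 133 and 145 in ZT13 PBS mice. Of the 8, 3 were called lower at ZT13, among them *Cldn5* at -1.10 and *Kdr* at -1.03 on the log2 scale, and none was called higher. The fall was not shared by all 8. *Ly6c1* was at most 12.2 CPM in ZT1 PBS mice and at least 13.4 in ZT13 PBS mice. *Slco1a4* overlapped between these groups and reached 28.4 CPM at ZT13. The part of endothelial RNA in the difference of *Mmp14* was not tested. Choroid plexus markers varied within both PBS groups, with summed CPM of 14.5, 923 and 21.1 at ZT1 and 975, 17.1 and 554 at ZT13. With the choroid plexus level as a covariate both *Mmp14* (-0.84) and *Timp3* (0.28) were still called. *Syn3*, which overlaps *Timp3*, was higher at ZT13 by 0.21 ± 0.07 (adjusted p = 0.273).

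The TOD × treatment interaction asked whether the response to LPS differed between times. *Mmp14* was the 1 member called, beside 0.159% of all tested genes (0.122% with a larger and 0.0371% with a smaller value at ZT13), with an LPS response larger at ZT13 by 1.14 ± 0.19 on the log2 scale (adjusted p = 0.0159). The lower level in ZT13 PBS mice made up 0.78 of this difference and the higher level in ZT13 LPS mice the other 0.36. The call was lost without ZT1 PBS mouse 2 or ZT13 PBS mouse 2 (adjusted p up to 0.0791).

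Of the 41 members not called, 10 had an unadjusted p under 0.05, a threshold at which all tested genes were not counted. *Mmp8* had an interaction of 1.86 ± 0.47 (adjusted p = 0.153), *Mmp9* of 1.42 ± 0.42 (adjusted p = 0.230), *Timp1* of 1.01 ± 0.31 (adjusted p = 0.260), *Adamtsl4* of 0.59 ± 0.18 (adjusted p = 0.277) and *Timp3* of -0.34 ± 0.08 (adjusted p = 0.137). Without ZT1 LPS mouse 1 *Mmp9* (adjusted p = 0.0343) and *Mmp8* (adjusted p = 0.0437) were called as well. Neither was called when any other single mouse was left out. Among endothelial markers 5 of 8 were called with a larger response at ZT13, and they share the PBS mice with *Mmp14*.

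**Figure D5:**
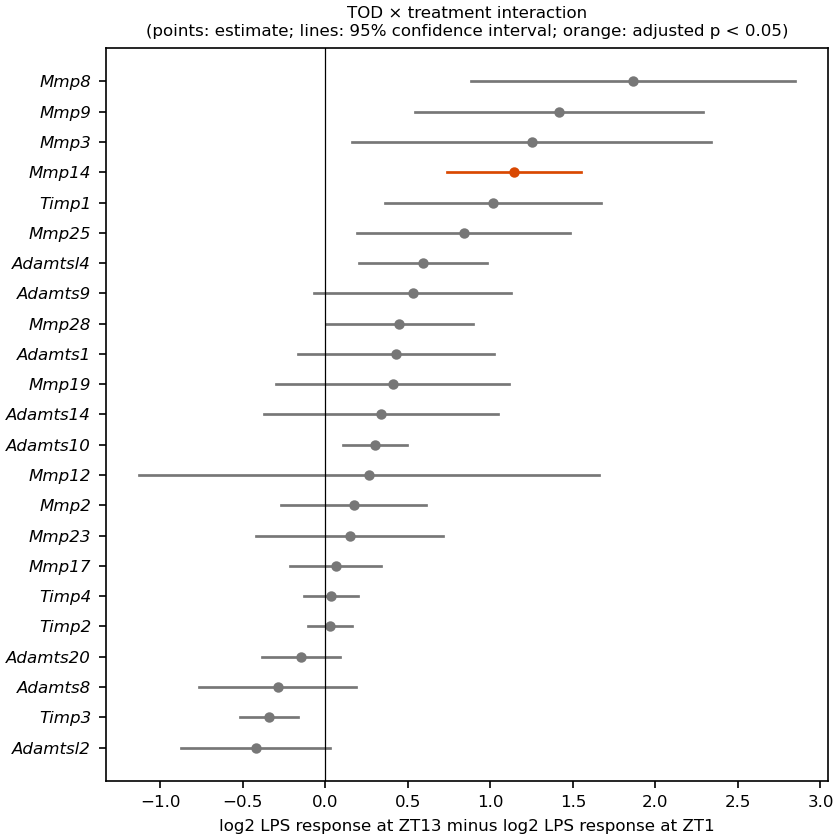
Difference between the log2 response to LPS at ZT13 and at ZT1 for the 23 members described by name with full statistics, as the estimate (points) and its 95% confidence interval (lines). The interval of *Mmp14* is 0.74 to 1.55, those of *Mmp8*, *Mmp9*, *Mmp3* and *Timp1* are wider and also lie above 0, and *Timp3* lies below 0. Orange marks the called member.

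Regulators and substrates of these proteases were examined as lists, each beside the shares of all tested genes given above. Of 14 tested genes that activate MMPs or regulate them at the cell surface, 5 were higher and 2 lower after LPS at ZT1, and 7 were higher and 3 lower at ZT13, with median log2 fold changes of 0.10 and 0.28. The urokinase receptor gene *Plaur* was higher by 1.55 and 1.81 on the log2 scale at the 2 times, and *Cd44*, which can dock MMP9 at the cell surface, by 0.77 and 1.82. *Furin*, a convertase that activates membrane-type MMPs, was higher by 0.25 and 0.47.

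Of 11 tested ADAM metalloproteinases, the membrane-anchored relatives of ADAMTS proteases, 3 were higher and 1 lower at ZT1 and 5 higher and 2 lower at ZT13. *Adam15* rose by 0.44 and 0.61. *Adam17*, the sheddase of TNF, rose by 0.58 at ZT13.

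Of 24 matrix and basement membrane substrates, 11 were higher and 3 lower at ZT1 and 13 higher and 4 lower at ZT13, with median log2 fold changes of 0.27 and 0.35. The basement membrane genes *Col4a1* (1.12 and 2.06), *Col4a2* (0.67 and 1.57) and *Hspg2* (1.2 and 2.22) were higher at both times, and *Col4a1* and *Col4a2* were also called in the interaction. Proteoglycans that ADAMTS proteases cleave, chosen for mention after their values were seen, differed in direction: *Bcan* (-0.61 and -0.87) and *Ncan* (-0.36 and -0.50) were lower at both times and *Vcan* (0.31 and 0.41) was higher at both.

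The members that were called in no comparison numbered 21 of the 42 tested, with log2 differences between -0.51 and 0.46 over the 5 comparisons. They were *Timp2*, the MMP genes *Mmp2*, *Mmp11*, *Mmp15*, *Mmp16* and *Mmp24*, *Adamtsl1*, *Adamtsl3*, *Adamtsl5* and 12 ADAMTS genes. The interval of each single gene, not the lack of a call, gives what these data could have missed, and reads were fewest in *Adamts7* (0.394 to 1.07 CPM), *Adamts12* (0.559 to 2.07 CPM) and *Adamts13* (0.747 to 1.83 CPM).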

How the data were processed

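RNA was measured in 16 cortex samples. The authors deposited 1 table of CPM with a column for each sample, which was scaled by library total. The submitters' notes name bcl2fastq, DRAGEN 4.0.3-8 and GRCm38, and the strand setting of counting is not given in the sources used here. The 287 repeated lines of the table were removed. Only 81.8% to 83.2% of low values were whole multiples of 1 read (tolerance 0.02), so whole reads were not recovered for a table of counts and no count test was run. For detection floors and the interval of *Mmp8* alone, reads were estimated as CPM divided by the CPM of 1 read and rounded.

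Tests were run for genes that reached 1 CPM in 3 or more samples, on log2(CPM + 0.5) with limma 3.58.1 in R 4.3.3 (intensity trend, Benjamini-Hochberg adjustment over all 18859 genes). Comparisons of 2 groups were fitted on those groups, and the interaction on all 16 samples. Standard errors are those of the fit, and ± with SD gives the spread between mice. Exact permutation tests were two-sided on the difference of mean CPM and cannot go below 0.0179 for 5 mice against 3. The members, gene lists and tests were chosen with earlier results of these data known. Members were described in full if they were a TIMP, *Mmp2*, *Mmp3*, *Mmp8*, *Mmp9* or *Mmp14*, or were called in any comparison, and other genes were named by the smallest adjusted p of their list. Alternatives were pseudocounts of 0.1 and 1, other filters, median-of-ratios scaling, a single fit, quality weights, no trend, a replicate block, each mouse left out, another gene length and, chosen after seeing the data, a choroid plexus covariate. The script was tested on simulated data. Lengths and overlaps are from GENCODE M21 and promoters from RefSeq (GRCm38.p6), with Python 3.11.15, pandas 2.3.3, numpy 2.4.6, scipy 1.17.1 and matplotlib 3.10.9.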

Additional observations from a re-analysis of the deposited data

Results flagged for a closer look

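The response of *Mmp14* to LPS was larger at ZT13 than at ZT1 by 1.14 on the log2 scale (interaction test, adjusted p = 0.0159).

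Single mice stood far from the other 4 of their group in 4 of the 84 groups of 5 examined for the tested members, and about 1 in 20 such groups would by chance. *Adamts2* was 37.9 CPM in ZT1 LPS mouse 2 against 17.8 to 21.5 in the others. *Adamts6* was 7.65 CPM in ZT1 LPS mouse 1 against 4.61 to 5.32. *Adamtsl2* was 6.22 CPM in ZT13 LPS mouse 5 against 3.44 to 4.21. *Timp4* was 49.1 CPM in ZT1 LPS mouse 5 against 45.0 to 45.7.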

How the results depend on the processing

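Of the 36 calls of single members, 18 held under every alternative that kept all mice and 24 held without each mouse in turn, and none of the 60 differences of members described in full that had an unadjusted p under 0.05 changed sign. Of the 55 others 24 changed sign under at least 1 alternative, with values in the reported fit between -0.09 and 0.26 on the log2 scale. *Timp1*, *Mmp3*, *Mmp8*, *Mmp9* and *Timp4* were called at both times under every alternative. Without a filter on low values 5 members were called at ZT1, 0 between PBS groups and 0 in the interaction, for which the larger number of genes tested (38565) is part of the setting. Of these genes 4.16%, 0.169% and 0.0311% were called in the 3 comparisons. Leaving out 1 mouse gave 8 to 15 called members for LPS against PBS at ZT1, 16 to 20 at ZT13, 0 to 7 for ZT13 LPS against ZT1 LPS, 0 to 1 for ZT13 PBS against ZT1 PBS and 0 to 3 for the interaction. Calls over all genes moved alongside, from 1767 to 3758 genes at ZT1 and from 0 to 345 for ZT13 LPS against ZT1 LPS. They ran from 4329 to 5547 at ZT13, from 12 to 87 for ZT13 PBS against ZT1 PBS and from 7 to 104 for the interaction. For ZT13 LPS against ZT1 LPS a single fit of all samples and sample quality weights gave 4 called members each. For ZT13 PBS against ZT1 PBS the single fit gave 1, *Mmp14*, and the fit without an intensity trend gave 0, beside 0.228% and 0.0159% of all tested genes. In the interaction sample quality weights gave 2 and no intensity trend 0, beside 0.658% and 0.0583% of all tested genes. The cause of these changes was not tested.

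Mice with the same number were not paired by the labels, and their residual correlations ran from -0.20 to 0.33 over 20 pairs. With a replicate block 12 members were called at ZT1, 16 at ZT13, 1 between LPS groups (*Mmp8*), 1 between PBS groups (*Mmp14*) and 2 in the interaction (*Mmp14* and *Mmp8*). In the same order, 14%, 24.8%, 0.0159%, 0.302% and 0.133% of all tested genes were called with this block.

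With 3 PBS mice at each time, small differences of low genes could not be resolved, and members under 1 CPM rest on few reads.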
